A study of Mus musculus with 2 samples.

Results

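The genes of mitosis and of the G2 to M transition are the machinery with which a cell condenses its duplicated chromosomes, attaches them to a spindle, separates them and divides. They were taken here as 40 genes listed by symbol, of 32285 genes in the gene table of the 2 libraries, and all 40 were found. The study removed Ddx41, a DEAD box helicase, together with the DNA sensor cGAS in mice, and profiled femoral bone marrow by droplet single-cell RNA sequencing (10x Genomics Chromium 3' v3). Described below is how far the mitotic genes of each marrow cell type differed between the 2 genotypes. The control, labelled WT, was 1 Ddx41 fl/fl mouse without Cre and with intact cGAS, 2 months old. The DKO was 1 mouse of the same age with the genotype VavCre:Ddx41 fl/fl, cGAS-/-. VavCre is active in hematopoietic cells, with expression also described in oocytes and endothelial cells, whereas the cGAS knockout is not limited to a lineage. The control therefore carried floxed Ddx41 alleles too, and effects of the 2 gene losses cannot be told apart.

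Cells accumulate the transcripts of these genes in late S phase and G2, when the MuvB complex with B-Myb and FoxM1 binds their promoters, and they destroy many of the proteins at the end of mitosis through the anaphase-promoting complex. In bone marrow, dividing cells are found among progenitors, erythroblasts, early granulocytes and B cell precursors, while mature neutrophils, mature B cells and reticulocytes have left the cycle. Erythroblasts divide a few last times while they fill with hemoglobin, then stop and expel the nucleus.

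For the control, all 1518290 barcodes were deposited, empty droplets included, whereas the 14142 barcodes of the DKO had already been called as cells. Unique molecular identifiers (UMIs), each counting a captured transcript from its 3' end, numbered 135693452 in the control and 117725934 in the DKO. Calling cells in the control and removing cells with over 20% mitochondrial UMIs and likely doublets left 18382 control cells with a median of 4843 UMIs and 13516 DKO cells with a median of 6853. Hemoglobin transcripts made up 28.1% of the UMIs of these cells in the control and 35.98% in the DKO. The 2 libraries had 81 barcode sequences in common, 0.422% of the control and 0.573% of the DKO cell barcodes. All levels below are counts per 1000000 (CPM), the UMIs of a gene divided by all UMIs of the same cells on that scale, summed over the cells of a class, and all log2 values are DKO over control with 1 count added to each sum. Each genotype was 1 mouse and 1 library, which allows no test between them, and the 95% intervals in parentheses cover counting error only and say nothing of the spread between mice.

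The targeted genes were lower in the DKO. Over all cells, Ddx41 had 2359 UMIs in control cells (20.3 CPM) against 892 in DKO cells (7.96 CPM), log2 -1.35 (-1.46 to -1.24). Cgas had 1576 UMIs in control cells (13.5 CPM) against 815 in DKO cells (7.27 CPM), log2 -0.90 (-1.02 to -0.77). In early erythroid-like cells the log2 ratio was -1.01 (-1.31 to -0.72) for Ddx41, from 241 and 167 UMIs, and -0.72 (-1.21 to -0.23) for Cgas, from 80 and 68 UMIs. Transcripts of both genes were thus still counted in the DKO. Because the tags come from the 3' end, a tag that lies outside the deleted stretch does not check the deletion.

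Cells were grouped into 26 clusters without the use of Ddx41, Cgas or 133 cell cycle genes, and the clusters were named by marker genes as 15 classes of marrow cells, each written here as "-like". None of the clusters took the name of a stem or progenitor cell upstream of the granulocyte-monocyte progenitor or of an endothelial cell, and the plasma-like cells (37 and 49) were too few to compare. At the finer clustering used as an alternative, 1 cluster did take the name progenitor (267 control and 94 DKO cells), and most of the basophil or mast-like class fell into it, 236 of 370 cells in the control and 79 of 149 in the DKO. In the 14 classes compared the mitotic genes were concentrated in early erythroid-like cells. Early erythroid-like cells, with all 9 of their markers (Gata1, Klf1, Tfrc and others) detected, were 11.7% of control and 14.8% of DKO cells and held 42.5% and 58.2% of all UMIs of the 40 genes. The summed level there was 12321 CPM in the control against 12102 in the DKO. Pro-B or pre-B-like cells came next with 7183 and 7516 CPM. With all UMIs in the scale the level was low in mature neutrophil-like cells, at 486 and 369 CPM, and in late erythroid-like cells, at 788 and 554 CPM. Without hemoglobin UMIs the mature neutrophil-like values were 495 and 375 CPM, but the late erythroid-like values were 5206 and 4466 CPM.

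**Figure D1:**
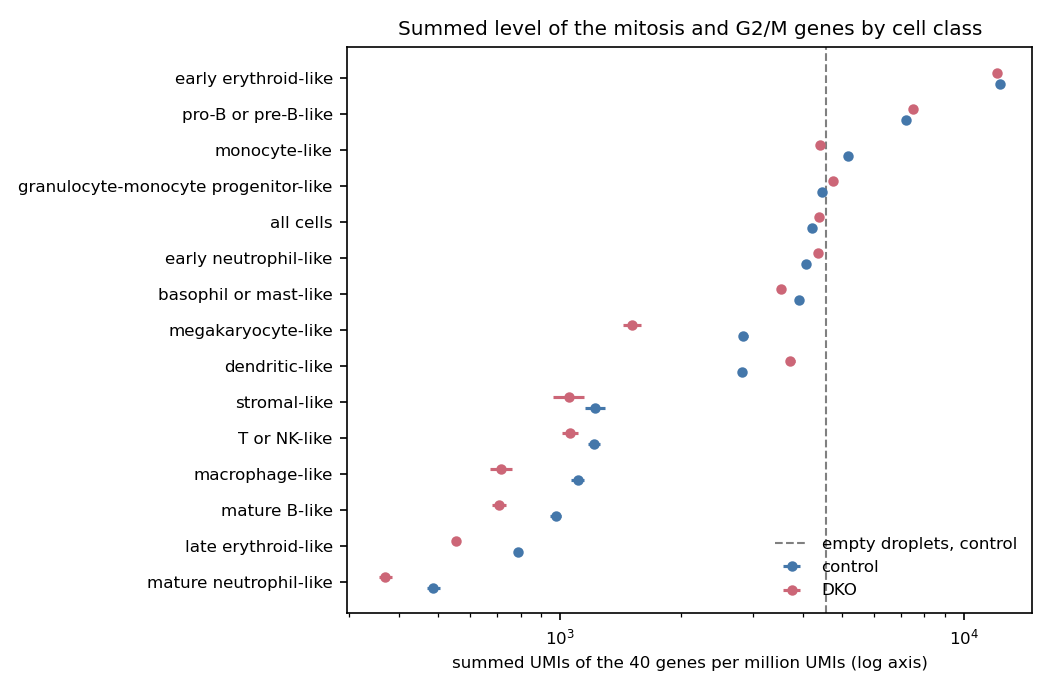
Summed level of the 40 mitotic genes in 14 cell classes (CPM, log axis) in the control and in the DKO; bars on the points are 95% counting intervals and the dashed line is the level in the empty droplets of the control (4562 CPM). Early erythroid-like cells stood highest in both libraries, at 12321 and 12102 CPM; there the difference between the libraries changes sign when hemoglobin UMIs are left out of the scaling.

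Taken gene by gene, 35 of the 40 members had their highest level of the 14 classes in early erythroid-like cells in the control, and 35 did in the DKO. The remaining 5 were highest in pro-B or pre-B-like cells in each library. These were Bub1b, Bub3, Ttk, Kif2c and Kif20b in the control and Bub1b, Bub3, Ttk, Cdc20 and Kif20b in the DKO. With all UMIs in the scale, late erythroid-like cells held the lowest level of 31 members in the control and of 25 in the DKO. Hemoglobin was 84.9% and 87.6% of the UMIs of that class, so these ranks rest on the scale. Mature neutrophil-like cells held the lowest level of 8 and 13. The widest range in the control belonged to Cdc25c, a phosphatase that switches Cdk1 on, with 34.3 CPM in early erythroid-like cells and 0.190 CPM, from 1 UMI, in mature neutrophil-like cells. That rank rests on 1 UMI, and Cdca8 came next with a 103-fold range, from 100 UMIs in late erythroid-like cells. The narrowest range belonged to Cdc25b, a relative of Cdc25c, with 162 CPM in early erythroid-like cells and 11.8 CPM in granulocyte-monocyte progenitor-like cells, a 13.7-fold range.

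Free transcripts also carried the module. Empty droplets of the control, barcodes of at most 100 UMIs, held 18583 UMIs of the 40 genes in 4073556 UMIs, which is 4562 CPM (4497 to 4628), above the summed level of 10 of the 14 classes in both libraries and of granulocyte-monocyte progenitor-like cells in the control and monocyte-like cells in the DKO. Only early erythroid-like and pro-B or pre-B-like cells stood above it in both. Hemoglobin was 14.5% of these UMIs. Empty droplets of the DKO were not analysed here, and the part of free transcripts in the levels of the classes, or in their differences between genotypes, was not tested.

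Counted cell by cell, the share of cells with a mitotic signature was 23.5% in the control (22.9% to 24.2%, Clopper-Pearson 95% interval, 3590 of 15256 cells) and 20.7% in the DKO (19.96% to 21.4%, 2457 of 11878). A signature means at least 5 UMIs of the 40 genes after every cell was thinned to 2000 UMIs. Thinning left out 3126 control and 1638 DKO cells of lower depth, and without it the shares were 37.2% and 38.7%, in the opposite order. Near the limit, 1597 control and 826 DKO cells had 3 or 4 such UMIs, and 543 and 256 had 5 or 6. In early erythroid-like cells the share was 87.1% in the control (85.4% to 88.6%, 1468 of 1686, 460 left out) and 90.03% in the DKO (88.4% to 91.5%, 1373 of 1525, 480 left out), against 89.1% and 93.2% unthinned. Mature neutrophil-like cells, which do not divide, showed 1.09% (14 of 1288 cells, class median 2695 UMIs) and 0.790% (14 of 1772, median 3317), against medians of 6422 and 10559 UMIs in early erythroid-like cells. Late erythroid-like cells had 4.90% in the control (256 of 5223) and 2.62% in the DKO (109 of 4161), against 33.4% and 37.95% unthinned. So most early erythroid-like cells of both mice carried the signature, far above the share in mature neutrophil-like cells.

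Outside the erythroid lineage the thinned share was lower in the DKO in 4 classes with many mitotic cells. It was 67.7% in the control and 62.2% in the DKO, with overlapping intervals (unthinned 89.6% and 92.1%), in granulocyte-monocyte progenitor-like cells. Early neutrophil-like cells had 30.8% in the control and 28.4% in the DKO, with overlapping intervals (unthinned 40.8% and 37.5%). For pro-B or pre-B-like cells it was 41.7% in the control and 32.7% in the DKO (unthinned 39.3% and 39.4%), and for monocyte-like cells 35.8% in the control and 25.9% in the DKO (unthinned 51.2% and 44.6%). Basophil or mast-like cells, with fewer mitotic cells, had 30.2% in the control and 28.5% in the DKO, with overlapping intervals (unthinned 57.3% and 65.1%). Unthinned, the order turned for the progenitor-like, the pro-B or pre-B-like and the basophil or mast-like class, so the order of these shares depends on the thinning. The limit mattered too, since at 10 member UMIs early neutrophil-like cells had 23.2% and 23.3%. Granulocyte-monocyte progenitor-like cells had 35.2% and 33.6% at that limit, and 82.4% and 76.5% at 3 member UMIs. In dendritic-like, megakaryocyte-like and macrophage-like cells the DKO share was higher with overlapping intervals, 13.9% in the control and 15.3% in the DKO (unthinned 24.8% and 28.7%), 17.05% in the control and 18.4% in the DKO (unthinned 20.7% and 19.2%), and 4.23% in the control and 4.32% in the DKO (unthinned 11.1% and 10.2%). The megakaryocyte-like share came from 7 of 38 DKO cells with 82 left out, and at a limit of 3 member UMIs the order turned in all 3. Of all cells with a signature, 40.9% were early erythroid-like in the control and 55.9% in the DKO.

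Early erythroid-like cells of the 2 mice held almost the same summed level of the 40 genes. They comprised 2146 control and 2005 DKO cells, and the members summed to 208277 and 286336 UMIs, or 12321 CPM in the control against 12102 in the DKO, log2 -0.03 (-0.03 to -0.02), a difference that turned to 0.06 when hemoglobin UMIs, 28.6% and 32.6% of the total, were left out of the scaling, and to 0.02 when Ube2c was left out of the sum. Per cell, the DKO held more, 143 member UMIs against 97.1, alongside a higher median depth of 10559 UMIs against 6422. The class was made up of 4 clusters in both libraries. In cluster 5, the least hemoglobinized, the genes summed to 6482 and 6279 CPM, log2 -0.05. The log2 ratio was -0.07 in cluster 12, -0.06 in cluster 13 and -0.13 in cluster 15, and in these 3 it turned to 0.17, 0.02 and 0.04 without hemoglobin. The clusters held 523, 722, 452 and 449 control cells and 452, 593, 560 and 400 DKO cells.

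Beneath the even sum, the members differed from each other. All 40 reached the level filter in early erythroid-like cells (a mean of at least 20 CPM over the 2 libraries), and none of them differed by 1.5-fold or more in either direction, where 0.729% of all genes over the filter were higher and 2.87% lower by that fold. The counting interval lay above 0 for 17 members, below 0 for 15, and covered 0 for 8 (Aurka, Bub1, Ttk, Bub1b, Nuf2, Nusap1, Tacc3 and Ect2). Over all genes past the filter it lay above 0 for 32.1% and below 0 for 36.6%. The members had a median log2 ratio of 0.02, against -0.01 for all genes over the filter. In number, 21 had a ratio above 0 and 19 below. Without hemoglobin in the scaling 26 were above, since Aurka, Bub1, Hmmr, Prc1 and Tacc3 turned. That scale adds 0.08 to every ratio, so the intervals of Aurkb, Ccnb1, Cdc25c, Mad2l1, Hmmr and Prc1 no longer lay below 0. Nusap1, Bub1b and Ect2 were among the members whose intervals came to lie above 0. The differences were therefore small, and their direction differed between roles.

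Among the genes of entry into mitosis, Cdk1 and the B-type cyclins were lower in the DKO. The 8 genes summed to 2046 CPM in the control against 1845 in the DKO, log2 -0.15 (-0.17 to -0.13). Cdk1, the kinase that drives a cell into mitosis, had 450.2 CPM in the control against 343 in the DKO, log2 -0.39 (-0.44 to -0.35). Its activating partners, the B-type cyclins, had log2 ratios of -0.08 (-0.15 to -0.02) for Ccnb1, close to 0 without hemoglobin in the scaling, and -0.30 (-0.34 to -0.25) for Ccnb2. Cdca3, a trigger of mitotic entry, stood at -0.22 (-0.26 to -0.17). Ccna2, the cyclin of S phase and G2, had 0.07 (0.02 to 0.12), and Ccnf, the substrate-binding subunit of a ubiquitin ligase, 0.26 (0.17 to 0.35). The phosphatases that remove the inhibitory mark from Cdk1 went opposite ways, 0.18 (0.11 to 0.25) for Cdc25b and -0.21 (-0.37 to -0.05) for Cdc25c. The interval of Cdc25c covered 0 without hemoglobin in the scaling. Without Cdk1 the remaining 7 genes summed to a log2 ratio of -0.09, close to 0 without hemoglobin.

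The mitotic kinases did not move together. Aurka, Aurkb, Plk1, Bub1 and Ttk summed to 439 CPM in the control against 432 in the DKO, log2 -0.03 (-0.07 to 0.02), and to 0.06 with hemoglobin left out. Plk1, which acts at centrosomes and kinetochores, was higher at 0.16 (0.06 to 0.25). Aurkb, the kinase of the chromosomal passenger complex, was lower at -0.15 (-0.23 to -0.06), but its interval covered 0 without hemoglobin in the scaling. For Aurka, which builds the spindle poles, the ratio was -0.03 (-0.11 to 0.05). The kinases of the spindle checkpoint had -0.01 (-0.13 to 0.10) for Bub1 and -0.11 (-0.25 to 0.03) for Ttk, so that a difference was not detectable at this depth for these 3.

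The genes of the spindle checkpoint and of the anaphase-promoting complex gave the lowest summed ratio of the 8 roles. They summed to 2149 CPM in the control against 1689.6 in the DKO, log2 -0.35 (-0.37 to -0.33), or -0.26 without hemoglobin. Ube2c, the ubiquitin-conjugating enzyme that serves the complex, had 1637 CPM in the control against 1258 in the DKO, log2 -0.38 (-0.40 to -0.36). Cdc20, the activator that brings substrates to the complex at anaphase, had 160.02 CPM in the control against 108 in the DKO, log2 -0.57 (-0.65 to -0.49). Without Ube2c the other 4 genes still summed to -0.25 (-0.29 to -0.21). The checkpoint proteins that hold Cdc20 back had -0.22 (-0.29 to -0.16) for Bub3, -0.11 (-0.22 to -0.00) for Mad2l1 and 0.07 (-0.03 to 0.16) for Bub1b. Of the 5 genes, 4 were thus below 0, and Bub1b was not.

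The passenger complex and the centromere were also lower in part. Birc5 (survivin), which targets the passenger complex to centromeres, had 861 CPM in the control against 679 in the DKO, log2 -0.34 (-0.38 to -0.31). Its partner Cdca8 (borealin) stood at -0.23 (-0.28 to -0.18). The pair summed to 1215 CPM in the control against 980.3 in the DKO, log2 -0.31 (-0.34 to -0.28). Cenpa, the histone H3 variant that marks centromeres, had 499.8 CPM in the control against 389 in the DKO, log2 -0.36 (-0.40 to -0.32). The large outer kinetochore proteins were slightly higher, the kinesin Cenpe at 0.10 (0.04 to 0.16) and Cenpf at 0.06 (0.02 to 0.10), and Nuf2 of the Ndc80 complex gave 0.03 (-0.08 to 0.14). The 4 centromere and kinetochore genes together had a log2 ratio of -0.09, close to 0 without hemoglobin in the scaling, and Cenpa was the only one of the 4 below 0.

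Spindle motors and microtubule-binding proteins leaned the other way. The 10 genes summed to 2177 CPM in the control against 2314 in the DKO, log2 0.09 (0.07 to 0.11). Kif11, the motor that pushes the poles apart, had 317 CPM in the control against 380.4 in the DKO, log2 0.26 (0.21 to 0.31). Kif4, which travels along chromosome arms and the midzone, had 124 CPM in the control against 153 in the DKO, log2 0.30 (0.22 to 0.38). Other kinesins were higher too, with 0.17 (0.10 to 0.24) for the central spindle motor Kif23, 0.19 (0.05 to 0.33) for the microtubule depolymerase Kif2c and 0.15 (0.03 to 0.26) for Kif20b. Tpx2, which activates Aurka on spindle microtubules, stood at 0.15 (0.10 to 0.21). The remaining binding proteins lay near 0, with 0.04 (-0.00 to 0.08) for Nusap1 and -0.01 (-0.08 to 0.07) for Tacc3. Hmmr at -0.07 (-0.13 to -0.01) and the midzone bundler Prc1 at -0.06 (-0.11 to -0.02) were lower, and these ratios turned to 0.01 and 0.02 when hemoglobin was left out. All 5 Kif genes of this role were therefore higher in the DKO.

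Cytokinesis and chromosome structure gave the highest summed ratios. Anln (anillin), a scaffold of the contractile ring, had a log2 ratio of 0.26 (0.19 to 0.33), and Ect2, which activates RhoA at the cleavage site, 0.02 (-0.06 to 0.09), so that the pair's sum of 0.15 rested on Anln. The 4 chromosome structure genes summed to 2752 CPM in the control against 3342 in the DKO, log2 0.28 (0.26 to 0.30). Mki67, the protein that coats mitotic chromosomes and is read as Ki-67, had 1212 CPM in the control against 1546 in the DKO, log2 0.35 (0.33 to 0.38). Top2a, the topoisomerase that untangles sister chromatids, had 720.2 CPM in the control against 831 in the DKO, log2 0.21 (0.17 to 0.24). The condensin subunits were higher as well, Smc4 with 632 CPM in the control against 748 in the DKO, log2 0.24 (0.21 to 0.28) and Ncapd2 with a ratio of 0.21 (0.15 to 0.28). Without Mki67 the other 3 summed to 0.22, so all 4 genes of this role were higher in the DKO.

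**Figure D2:**
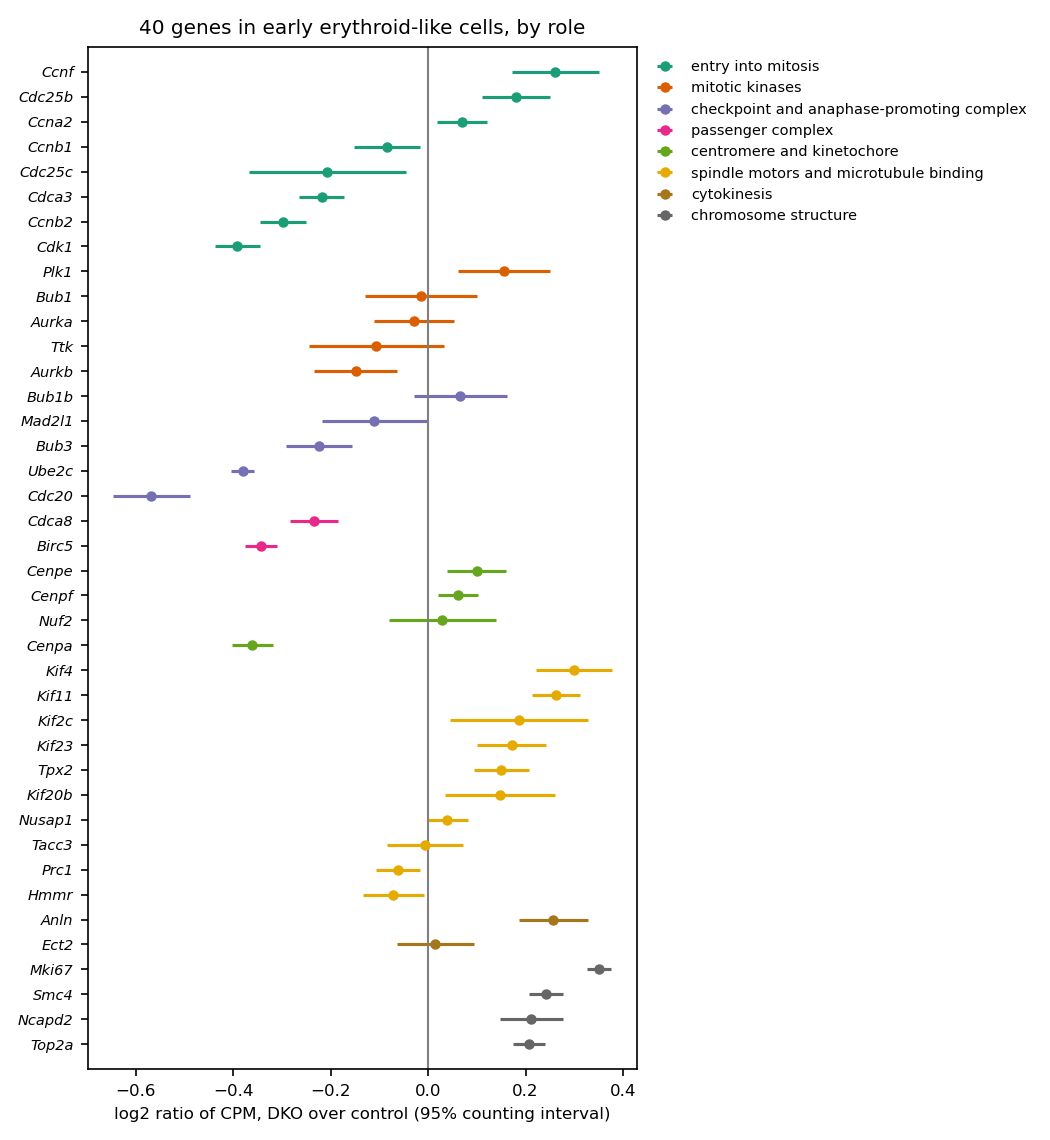
Log2 ratio of DKO over control in early erythroid-like cells for each of the 40 mitotic genes, grouped by role, with 95% counting intervals. Ratios ran from -0.57 for Cdc20 to 0.35 for Mki67; leaving hemoglobin UMIs out of the scaling adds 0.08 to every gene and turns Aurka, Bub1, Hmmr, Prc1 and Tacc3 from below to above 0.

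The roles also differed from each other in other classes. Over the 14 classes, the checkpoint and anaphase-promoting complex genes were lower in 13, with the whole interval below 0, and higher in 0. The passenger complex genes were lower in 12 and higher in 0, and the genes of entry into mitosis lower in 11 and higher in 2. Chromosome structure was higher in 6 and lower in 5, spindle genes higher in 5 and lower in 5, and cytokinesis higher in 5 and lower in 3. The mitotic kinases were higher in 3 and lower in 6, and the centromere and kinetochore genes higher in 2 and lower in 9. These counts were the same with hemoglobin left out of the scaling except for the last role, with 1 and 8. Classes traded places within them. On that scale late erythroid-like cells went from -0.25 to 0.04 for spindle genes and from -0.04 to 0.24 for entry into mitosis. Stromal-like cells went from -0.33 to -0.60 and from 0.42 to 0.16 for the same roles. No such count over all genes exists for these sums, and differences between classes were not tested.

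Many single members showed the same division, and others did not. Ube2c and Cdc20 were lower in 13 of the 14 classes and higher in 0, as were 1.28% of all genes of at least 20 CPM in all cells. Cdk1, Birc5 and Cdca8 were lower in 12 and higher in 0, where Cdca8 reached 13 without hemoglobin in the scaling; 2.77% of all genes were lower in at least 12 and higher in 0. Ccnb2, Cdca3 and Cenpa were lower in 10, and Bub3 in 9, with none higher, so 9 of 39 members reached 9 in this way, where 8.5% of all genes did. At the other end, Mki67 was higher in 9 and lower in 4, Top2a higher in 7 and lower in 5 and Kif11 higher in 6 and lower in 4. Smc4 was higher in 6 and lower in 1, Kif20b higher in 6 and lower in 2, and Ccnf and Anln each higher in 5 and lower in 1. In at least 5 classes 10 of 39 members were higher, a smaller share than the 39.1% of all genes. Some members departed from their role. Among the spindle genes Nusap1 was higher in 4 and lower in 7, Prc1 higher in 2 and lower in 6, Hmmr higher in 2 and lower in 5 and Tacc3 higher in 0 and lower in 2. Among the checkpoint genes Bub1b was higher in 2 and lower in 2 and Mad2l1 higher in 1 and lower in 3. Without hemoglobin in the scaling the counts of all these genes moved by at most 2. They were named here after their values were seen.

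Over all cells together the summed level was 4207 CPM in the control against 4392 in the DKO, log2 0.06 (0.06 to 0.07), and 0.23 without hemoglobin, a change of scale that moves the median of all genes by 0.17. Thinned to equal depth the DKO read lower, 5.87 member UMIs per control cell and 5.45 per DKO cell. Of the 39 members over the filter (all but Cdc25c), 22 had an interval above 0 and 11 below, where 36.9% and 49.4% of all genes had them. None was 1.5-fold higher, where 2.13% of all genes were, and none 1.5-fold lower, where 8.97% were. Without hemoglobin in the scaling Mki67 and Cdc25b were past 1.5-fold higher, and the members with a ratio above 0 went from 25 to 31. Mki67 had 332 CPM in the control against 479 in the DKO, log2 0.53 (0.51 to 0.55). Cdc25b had 50.97 CPM in the control against 72.2 in the DKO, log2 0.50 (0.45 to 0.55). Kif4 had 37.6 CPM in the control against 49.7 in the DKO, log2 0.40 (0.34 to 0.46). These 3 gave the highest ratios. The lowest belonged to Cdc20 with 71.1 CPM in the control against 51.6 in the DKO, log2 -0.46 (-0.51 to -0.41), to Bub3 with 112 CPM in the control against 88.96 in the DKO, log2 -0.33 (-0.36 to -0.29), and to Cenpa with 179.5 CPM in the control against 148 in the DKO, log2 -0.28 (-0.31 to -0.25). Among the members with the most UMIs, Top2a (285 and 335 CPM, log2 0.23) and Smc4 (243 and 289 CPM, log2 0.25) were higher, and Birc5 (257 and 217 CPM, log2 -0.24) and Ube2c (533 and 449 CPM, log2 -0.25) lower. The 2 mice differ in how their cells are spread over the classes, so these pooled values mix composition with level.

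In early neutrophil-like cells (1685 control and 1380 DKO cells), granulocyte precursors that still divide, the members summed to 4059 CPM in the control against 4371 in the DKO, log2 0.11 (0.09 to 0.12), or 0.22 with doublets kept. Thinned to equal depth they read lower in the DKO, 5.44 member UMIs per control cell and 5.29 per DKO cell. The median of all genes was 0.20, above the members' median of 0.13. Of the 38 members over the filter (all but Cdc25b and Cdc25c), 20 had intervals above 0 and 10 below, where 56.1% and 18.1% of all genes had them. By 1.5-fold, 2 members were higher (Ttk and Anln), where 6.2% of all genes were, and 0 were lower, where 1.14% were. The checkpoint kinase Ttk had 22.7 CPM in the control against 35.3 in the DKO, log2 0.64 (0.44 to 0.84). Anln had 58.1 CPM in the control against 89.9 in the DKO, log2 0.63 (0.51 to 0.75). Kif20b had 38.98 CPM in the control against 57.5 in the DKO, log2 0.56 (0.41 to 0.71). Thus a kinase, a ring scaffold and a kinesin stood at the top. At the bottom were Cdc25b, with 16.5 CPM in the control against 10.1 in the DKO, log2 -0.71 (-1.02 to -0.41), Ube2c, with 400.04 CPM in the control against 292 in the DKO, log2 -0.45 (-0.51 to -0.40), and Birc5, with 221 CPM in the control against 184 in the DKO, log2 -0.27 (-0.34 to -0.19). Of the members with the most UMIs, Mki67 (292 and 395 CPM, log2 0.44), Smc4 (270.04 and 349 CPM, log2 0.37) and Top2a (318 and 403 CPM, log2 0.34) were higher, as in early erythroid-like cells.

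Granulocyte-monocyte progenitor-like cells (656 control and 241 DKO cells) summed to 4471 CPM in the control against 4749 in the DKO, log2 0.09 (0.07 to 0.11). The median was 0.09 over all genes and 0.20 over the members. Thinned to equal depth the DKO read lower, 8.37 member UMIs per control cell and 8.06 per DKO cell. Here too 38 members passed the filter, 20 with intervals above 0 and 11 below (40.1% and 24.5% of all genes), and none reached 1.5-fold in either direction (5.25% of all genes were higher and 1.18% lower). Kif4 had 31.4 CPM in the control against 46.98 in the DKO, log2 0.58 (0.37 to 0.79). Ect2 had 52.3 CPM in the control against 74.6 in the DKO, log2 0.51 (0.35 to 0.67). Mki67 had 232 CPM in the control against 328 in the DKO, log2 0.50 (0.42 to 0.58). The highest ratios belonged to a motor, a cytokinesis gene and the chromosome coat. Birc5 had 308 CPM in the control against 251 in the DKO, log2 -0.30 (-0.38 to -0.22). Ube2c had 367 CPM in the control against 299 in the DKO, log2 -0.29 (-0.37 to -0.22). Cdc20 had 110.2 CPM in the control against 90.7 in the DKO, log2 -0.28 (-0.42 to -0.15). The anaphase-promoting complex thus supplied 2 of the 3 lowest. Of the members with the most UMIs, Top2a (342 and 443 CPM, log2 0.37) and Smc4 (289 and 349 CPM, log2 0.27) were higher. The summed difference turned to -0.01 when likely doublets were kept.

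Pro-B or pre-B-like cells (943 control and 683 DKO cells), with all 8 of their markers detected, summed to 7183 CPM in the control against 7516 in the DKO, log2 0.07 (0.04 to 0.09). Thinned to equal depth, the order was opposite, with means of 10.5 member UMIs per control cell and 8.79 per DKO cell. In this class 39 members passed the filter (all but Cdc25c), with intervals above 0 for 13, below 0 for 9 and covering 0 for 17; of all genes 31.3% had them above and 15.9% below. None was 1.5-fold higher or lower, where 3.05% of all genes were higher and 1.42% lower. Cdc25c, with few UMIs, gave 15.5 CPM in the control against 22.4 in the DKO, log2 0.52 (0.07 to 0.99). Ttk had 46.3 CPM in the control against 64.5 in the DKO, log2 0.47 (0.21 to 0.74). Ncapd2 had 142 CPM in the control against 188 in the DKO, log2 0.40 (0.26 to 0.56). The highest ratios belonged to a gene of entry, a mitotic kinase and a condensin subunit. Of the members with the most UMIs, Mki67 (496 and 655 CPM, log2 0.40), Top2a (672 and 820.5 CPM, log2 0.29) and Smc4 (413 and 476 CPM, log2 0.20) were higher too. Birc5 had 378 CPM in the control against 283 in the DKO, log2 -0.42 (-0.52 to -0.31). Ube2c had 576 CPM in the control against 441 in the DKO, log2 -0.39 (-0.47 to -0.30). Cdca8 had 249 CPM in the control against 201 in the DKO, log2 -0.30 (-0.43 to -0.18). Both named subunits of the passenger complex were therefore among the 3 lowest, with the sum of that role at -0.37.

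Monocyte-like cells (1162 control and 590 DKO cells) had a lower summed level in the DKO, 5182 CPM in the control against 4409 in the DKO, log2 -0.23 (-0.25 to -0.21) (-0.091 with doublets kept), while the median of all genes was 0.13. Intervals lay below 0 for 18 of the 39 members over the filter and above 0 for 2, and for 21.5% and 43.1% of all genes. By 1.5-fold, Ube2c alone was lower, where 1.98% of all genes were, and none was higher, where 5.28% were. Ube2c had 432 CPM in the control against 278 in the DKO, log2 -0.64 (-0.71 to -0.56). Aurka had 56.5 CPM in the control against 37.7 in the DKO, log2 -0.58 (-0.80 to -0.38). Birc5 had 310.2 CPM in the control against 208 in the DKO, log2 -0.58 (-0.67 to -0.49). These 3 were the lowest. The highest ratios were small, 0.22 for Kif20b (53.05 CPM in the control against 61.6 in the DKO), 0.14 for Mki67 (387 CPM in the control against 426 in the DKO) and 0.07 for Nuf2 (28.4 CPM in the control against 29.8 in the DKO). Of the members with the most UMIs, Top2a (418 and 399 CPM, log2 -0.07) and Smc4 (286 and 277 CPM, log2 -0.05) differed little. Summed by role, the ratios ran from -0.54 for the passenger complex to 0.02 for cytokinesis.

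Dendritic-like cells (500 control and 150 DKO cells), of which 6 of the 7 markers were detected in both libraries, had the highest summed ratio of the 14 classes, 2832 CPM in the control against 3723 in the DKO, log2 0.39 (0.34 to 0.44), or 0.58 with doublets kept. Thinned to equal depth they read 3.52 member UMIs per control cell and 4.12 per DKO cell. Few cells carried the signature, 64 of 460 in the control and 22 of 144 in the DKO. Of the 35 members over the filter (not Bub1, Cdc25b, Cdc25c, Kif2c and Nuf2), 19 had intervals above 0 and 1 below, where 26% and 11.4% of all genes had them. By 1.5-fold, 16 were higher, where 10.7% of all genes were, and 0 lower, where 3.45% were. Cenpf had 77.6 CPM in the control against 165 in the DKO, log2 1.09 (0.82 to 1.36). Anln had 30.9 CPM in the control against 61.05 in the DKO, log2 0.98 (0.54 to 1.42). Cenpe had 52.2 CPM in the control against 102 in the DKO, log2 0.96 (0.62 to 1.30). Both outer kinetochore proteins thus stood among the 3 highest. Cdc20 had 55.2 CPM in the control against 40.5 in the DKO, log2 -0.43 (-0.92 to -0.00). Ube2c had 252 CPM in the control against 239 in the DKO, log2 -0.08 (-0.27 to 0.11). Mad2l1 had 32.2 CPM in the control against 30.9 in the DKO, log2 -0.04 (-0.62 to 0.48). The 3 lowest were all checkpoint or anaphase-promoting complex genes. Of the members with the most UMIs, Top2a (235 and 385 CPM, log2 0.71), Mki67 (188 and 259.6 CPM, log2 0.47) and Smc4 (192 and 225 CPM, log2 0.23) were higher, and Birc5 (162 and 175 CPM, log2 0.11) differed less. Genes of S phase stood apart, and 4 of the 21 S-phase genes over the filter were above 0.

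Megakaryocyte-like cells (410 control and 120 DKO cells) gave the lowest summed ratio, 2845 CPM in the control against 1512 in the DKO, log2 -0.91 (-0.99 to -0.83), beside a median of 0.14 over all genes. The ratio moved to -2.33 with doublets kept and to -2.50 with finer clustering. The finer clustering moved 28 control and 13 DKO cells to the cluster named progenitor, and 30 control and 7 DKO cells to late erythroid-like clusters. The DKO cells also had a lower median depth, 1026 UMIs against 1524, in contrast to most classes. Of 34 members over the filter (not Bub1, Ttk, Cdc25b, Cdc25c, Kif2c and Ect2), 23 had intervals below 0 and 0 above, where 8.94% and 20.2% of all genes had them. By 1.5-fold, 22 were lower, where 6.2% of all genes were, and 0 higher, where 11.4% were. Cenpa had 94.5 CPM in the control against 19.3 in the DKO, log2 -2.23 (-3.06 to -1.61). Ube2c had 278 CPM in the control against 72.01 in the DKO, log2 -1.93 (-2.32 to -1.59). Cdca3 had 61.7 CPM in the control against 18.3 in the DKO, log2 -1.69 (-2.56 to -1.04). All roles were lower, from -1.43 for the centromere to -0.49 for chromosome structure. Among members with at least 100 UMIs over both libraries, the highest ratios were 0.07 (-0.49 to 0.59) for Ncapd2 (43.9 CPM in the control against 45.6 in the DKO, and -0.02 without hemoglobin), -0.23 (-0.51 to 0.04) for Smc4 (190.5 CPM in the control against 162 in the DKO) and -0.23 (-0.91 to 0.36) for Tacc3 (37.6 CPM in the control against 31.4 in the DKO). Over all members past the filter the highest was 0.49. Of the members with the most UMIs, Top2a (222 and 169 CPM, log2 -0.39), Mki67 (215 and 101 CPM, log2 -1.07) and Birc5 (145 and 62.9 CPM, log2 -1.19) were lower. In the S-phase list, by contrast, 18 of 22 genes were above 0, with a median of 0.14.

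Late erythroid-like cells (5556 control and 4408 DKO cells) were 84.9% hemoglobin by UMIs in the control and 87.6% in the DKO, and the module was low in them with all UMIs in the scale. The summed level was 788 CPM in the control against 554 in the DKO, log2 -0.51 (-0.54 to -0.48), and -0.22 without hemoglobin, where the scale itself moves by 0.29. Without hemoglobin UMIs the level was 5206 CPM in the control and 4466 in the DKO. Clustering with the cell cycle genes kept gave -0.18. The filter was passed by 4 members, Ube2c, Nusap1, Cdc25b and Mki67. By 1.5-fold, 1 was lower (Ube2c), where 26% of all genes were, and 0 higher, where 0.289% were. Ube2c had 396 CPM in the control against 248 in the DKO, log2 -0.68 (-0.72 to -0.64), and -0.39 without hemoglobin. Cdc25b had 46.3 CPM in the control against 65.1 in the DKO, log2 0.49 (0.39 to 0.59), and 0.78 without hemoglobin, so on that scale Cdc25b was past the fold and Ube2c was not. Nusap1 had 114 CPM in the control against 106 in the DKO, log2 -0.10 (-0.17 to -0.03), which turned to 0.19 without hemoglobin, and Mki67 had 44.1 CPM in the control against 39.1 in the DKO, log2 -0.17 (-0.28 to -0.06), which turned to 0.11. Cdc25b was therefore the only one of the 4 higher in the DKO on both scales. The lowest ratios belonged to rare transcripts, Ccnb1 (3.53 CPM in the control against 0.928 in the DKO, log2 -1.90 (-2.54 to -1.35)), Cdc20 (3.42 CPM in the control against 1.04 in the DKO, log2 -1.69 (-2.30 to -1.16)) and Bub3 (6.47 CPM in the control against 2.03 in the DKO, log2 -1.66 (-2.09 to -1.28)). Of the 5 members with the most UMIs, Smc4 (15.9 and 8.61 CPM, log2 -0.88) was below the filter.

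In the 6 remaining classes the summed level was lower in the DKO. The log2 ratio was -0.15 in basophil or mast-like cells (370 control and 149 DKO cells) and -0.20 in T or NK-like cells (591 control and 299 DKO cells; -0.022 above the UMI threshold of cell calling). Mature neutrophil-like cells (1729 control and 1953 DKO cells) had -0.40, and mature B-like cells (1469 control and 911 DKO cells) had -0.47, or -0.16 with doublets kept. Macrophage-like cells (859 control and 469 DKO cells) had -0.63. The value of -0.21 in stromal-like cells (269 control and 109 DKO cells) came from 1162 and 477 member UMIs, turned to 0.03 without Ube2c, and stood beside a scale shift of -0.26 when hemoglobin was left out. All 6 lay below the level of the empty droplets, with the free transcripts described above. The finer clustering moved 236 control and 79 DKO basophil or mast-like cells to the cluster named progenitor, and the cells left in the class gave -0.44.

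Ordering the erythroid-like cells by the hemoglobin share of their UMIs traced the module through maturation. The ranges were under 15%, 15 to 40%, 40 to 75%, 75 to 90% and 90% or more, with 1031, 580, 1222, 3491 and 1378 control cells and 719, 517, 1210, 1387 and 2580 DKO cells. On the CPM scale the summed level in the control was 9139, 14921, 9685, 815 and 474 over the 5 ranges, and in the DKO 8840.5, 14092, 10592, 717 and 387. On this scale the level peaked at 15 to 40% in both mice and fell off steeply past 75%. Without hemoglobin UMIs in the scaling the 5 ranges read 9552, 20866, 23443, 5801 and 5662 in the control and 9182, 19723, 25187, 4751 and 5235 in the DKO. The peak thus moved to 40 to 75% in both, and the fall past 75% was less steep. The log2 ratios were -0.05, -0.08, 0.13, -0.19 and -0.29, so that at 40 to 75% the DKO was higher and in the other 4 ranges lower. The medians of all genes were 0.10, 0.04, 0.11, 0.31 and -0.23, close to the members' sum at 40 to 75% and at 90% or more. The members' own median was further away, 0.21 at 40 to 75% and 0.23 at 90% or more, where 3 members passed the filter. The value at 75 to 90% turned to 0.15 without Ube2c. The cell numbers moved as well, since the control held 3491 cells at 75 to 90% against 1387 in the DKO, and the DKO held 2580 at 90% or more against 1378.

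Whether the peak of single members lay later in the DKO depended on the scaling. With all UMIs in the scale, 36 members were highest at 15 to 40% in the control and 37 in the DKO, and 1, Ube2c, at 40 to 75% in both. On the CPM scale without hemoglobin UMIs, the control had 26 members highest at 15 to 40% and 14 at 40 to 75%. The DKO had 9 highest at 15 to 40% and 30 at 40 to 75%, and 1, Cdc25b, at 90% or more. Mki67, on the same scale, read 1015, 2337, 1956, 199 and 139 over the 5 ranges in the control and 1147, 2629, 3215, 302 and 116 in the DKO. On that scale its peak was at 15 to 40% in the control and at 40 to 75% in the DKO, whereas with all UMIs it was at 15 to 40% in both (1671 and 1878 CPM, against 808 and 1352 at 40 to 75%). Cells within a range can differ in their hemoglobin share between the libraries. Over the summed UMIs it was 28.49% in the control and 28.55% in the DKO at 15 to 40%, and 58.7% and 57.9% at 40 to 75%. The part of such differences in the shift was not tested.

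Past 75% hemoglobin a few members outlasted the rest on the scale without hemoglobin UMIs. There Ube2c read 693, 2272, 4872, 3149 and 3289 over the 5 ranges in the control and 454, 1726, 3614, 2017 and 2883 in the DKO. Nusap1, which bundles spindle microtubules around chromosomes, read 306, 793, 1133, 875 and 703 and 287, 779, 1199, 1024 and 934. Cdc25b read 75.2, 292, 445, 338 and 298 and 71.9, 342, 493, 542 and 652. In these 3 genes the level on this scale stayed within a few fold of its peak, whereas Mki67 dropped by more than 10-fold from its peak in both libraries. Cdc25b in the DKO was higher in each range than in the range before it on this scale alone, and with all UMIs it was highest at 15 to 40%. These 3 genes were singled out after their values were seen, as the members that pass the level filter in late erythroid-like cells beside Mki67.

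**Figure D3:**
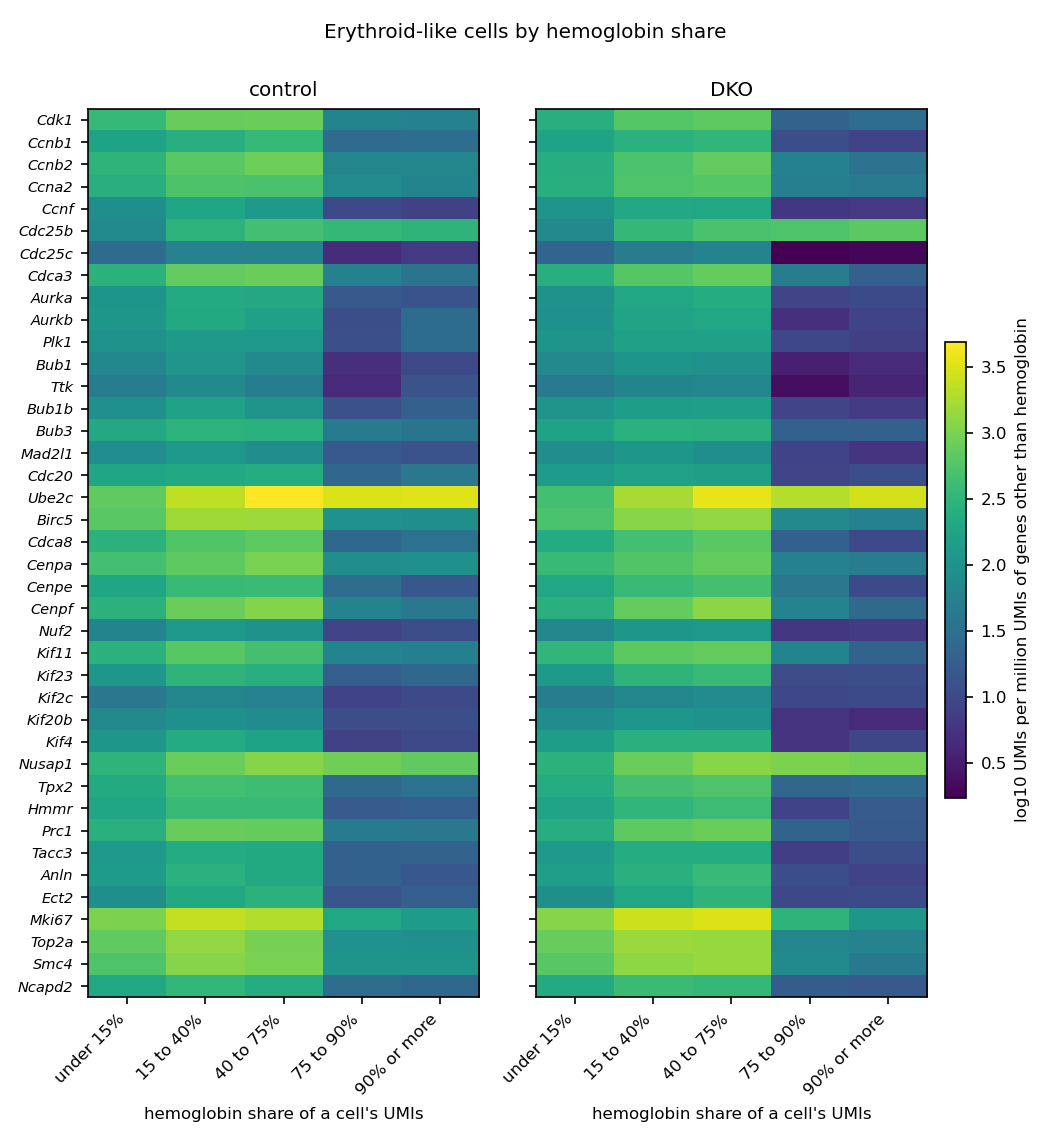
Level of each of the 40 mitotic genes in erythroid-like cells by hemoglobin share, shown as log10 of CPM computed without hemoglobin UMIs, in 5 ranges of hemoglobin share (columns) for the control and the DKO. Most genes fade past 75%, while Ube2c, Nusap1 and Cdc25b persist; on this scale 26 genes peak at 15 to 40% in the control and 9 in the DKO.

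Some hemoglobin-rich control barcodes were not called as cells. Among control barcodes of at least 500 UMIs, 742 were not called as cells, with a median of 907 UMIs and a median hemoglobin share of 72.8%. They held 2437 UMIs of the 40 genes. Adding them, an alternative chosen after seeing the data, moved the ratio at 40 to 75% to 0.15 and left it at -0.18 at 75 to 90% and at -0.29 at 90% or more.

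Other cell cycle genes in early erythroid-like cells set the 40 in context. Of 54 further mitotic genes, such as Aspm, Ndc80 and Espl1, 49 passed the filter, 36 above 0 and 13 below, with a median of 0.09. Of 29 S-phase genes, such as Mcm2 and Pcna, 28 passed, 18 above 0 and 10 below, with a median of 0.07. Of 10 genes of cycle exit, such as Cdkn1b and Rb1, 7 passed, 5 above 0 and 2 below, with a median of 0.02. The corresponding medians were 0.02 for the members and -0.01 for all genes, so none of the 4 lists stood far from the rest of the transcriptome. The lists parted in other classes. In dendritic-like cells the medians were 0.47 for the members, 0.41 for the other mitotic genes and -0.16 for S phase. In megakaryocyte-like cells they were -0.85, -0.37 and 0.14. The median of all genes was 0.15 in the former class and 0.14 in the latter, so in megakaryocyte-like cells S phase stood with all genes.

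Of 6 regulators of the cycle, 4 were higher in DKO early erythroid-like cells by their intervals, as were 32.1% of all genes over the filter. Foxm1, the forkhead factor of G2 genes, had 23.7 CPM in the control against 33.1 in the DKO, log2 0.48 (0.31 to 0.66). Mybl2, which encodes B-Myb, had 59.9 CPM in the control against 83.7 in the DKO, log2 0.48 (0.37 to 0.59). Lin54, the DNA-binding subunit of the MuvB complex, had 52.6 CPM in the control against 66.4 in the DKO, log2 0.34 (0.22 to 0.46). Rbl1 (p107), a pocket protein of the repressive form of that complex, was higher too. It had 96.8 CPM in the control against 118 in the DKO, log2 0.29 (0.20 to 0.38). Foxm1 and Mybl2 of the activating side and Rbl1 of the repressive side were thus all higher, and Rbl1 is the only repressive gene named here. Cdkn1b (p27), an inhibitor of cyclin-dependent kinases, was lower, with 109 CPM in the control against 81.96 in the DKO, log2 -0.42 (-0.51 to -0.32). Fzr1 (Cdh1), which keeps the anaphase-promoting complex active after mitosis, did not differ beyond counting error, with 134 CPM in the control against 135 in the DKO, log2 0.00 (-0.07 to 0.08). Without hemoglobin in the scaling its ratio was 0.09, with the interval above 0. Foxm1 rested on 400 and 782 UMIs.

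The 40 genes moved together from cell to cell. For each member, thinned early erythroid-like cells were split into the 10% with the most UMIs of the other 39 members and the rest, and the member's own level was compared between them within a library. All 40 members were higher in the top cells in the control and all 40 in the DKO, with the interval above 0 for 39 and 38. Of the other genes it lay above 0 for 20% and 16.7%, and their medians were -0.08 and -0.11. The median log2 difference was 1.25 in the control and 1.20 in the DKO. It ran from 0.56 (Mad2l1) to 2.10 (Cdc25c) in the control and from 0.58 (Cdca3) to 2.15 (Cdc25c) in the DKO. Most further mitotic genes with at least 20 thinned UMIs were higher too, 49 of 52 (control) and 47 of 51 (DKO). Their median was 1.28 in both libraries, and the interval lay below 0 for 1 gene (control) and 2 genes (DKO). Mybl2, the gene of B-Myb, was the lowest of this list in each library, with -1.23 (control) and -1.65 (DKO). S-phase genes were lower in the same cells, with medians of -1.71 and -1.41 and 0 genes above 0 in either library. Genes of cycle exit lay between, at 0.56 and 0.39. The cells richest in the 40 genes thus held fewer S-phase transcripts than the rest in both mice. The members share a library and a depth in this comparison, and the values are a description. The top cells were drawn from the whole class, so they can also differ from the rest in maturation, which was not tested. Over hemoglobin ranges of under 15%, 15 to 40% and 40 to 75%, the S-phase list summed to 7004, 6439 and 1334 CPM in the control. In the DKO it summed to 7849, 7350 and 1956 CPM.

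The split was sharper in classes where fewer cells carried the signature. In early neutrophil-like cells the members' median was 2.71 in the control and 2.72 in the DKO, and in pro-B or pre-B-like cells 2.60 and 3.32. S-phase genes there had medians of 0.47 and 0.49 in the former class and -0.19 and 0.31 in the latter. A clear drop of S-phase genes in the cells richest in the members was thus seen in early erythroid-like cells and not in these 2 classes. The cells they were compared with differ, since most early erythroid-like cells carried the signature and most cells of these 2 classes did not. The difference between classes was not tested.

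The members that were lower in the DKO tended to be short genes. By the GENCODE M21 annotation of GRCm38, the 40 genes lie on 15 chromosomes, 7 of them on chromosome 2, and their merged exons measure from 1531 bases (Ccnb2) to 15433 (Cenpf). Cdc20 spans 4452 bases (chr4:118432901-118437352) and Ube2c 8925 (chr2:164769898-164778822). Kif4 spans 101478 bases (chrX:100625737-100727214) and Kif11 45457 (chr19:37376403-37421859). In early erythroid-like cells the log2 ratio of the 40 members had a Spearman correlation of 0.59 with gene span and 0.46 with exon length across genes. The same relation held over all genes of the class (n = 4523), with 0.45 and 0.48. The 20 members with shorter exons had a median ratio of -0.06 and the 20 longer ones 0.12, against -0.15 and 0.12 for all genes on either side of the same length. Thus the spread among the members followed a length relation that the rest of the transcriptome shared. Genes are not independent replicates, and the cause was not tested.

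**Figure D4:**
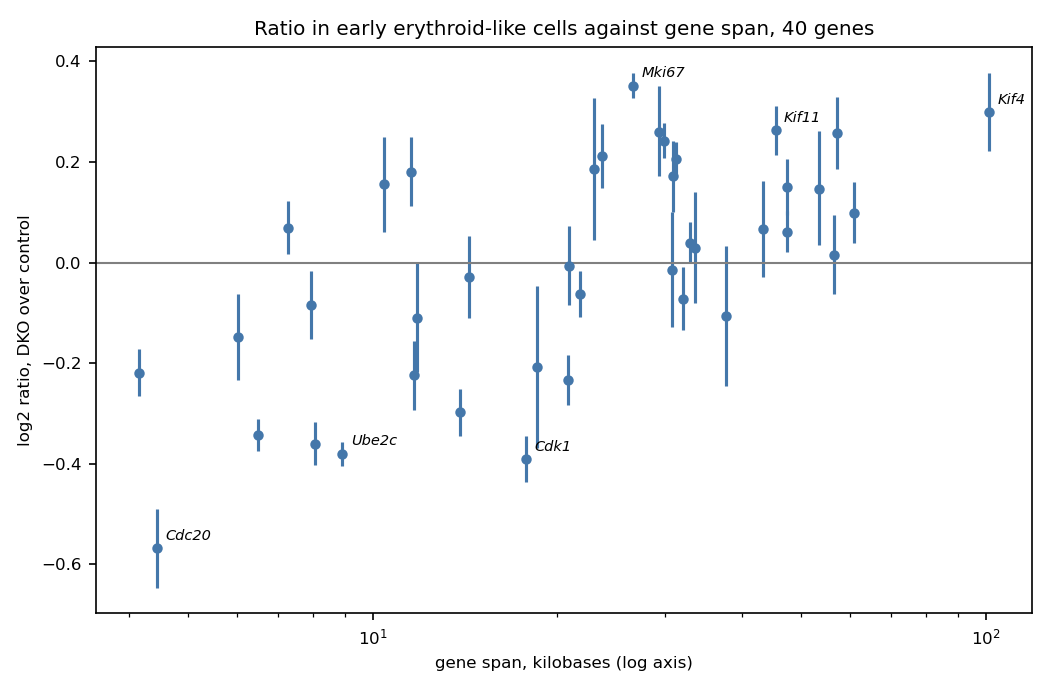
Log2 ratio of DKO over control in early erythroid-like cells against gene span in kilobases (log axis) for the 40 mitotic genes, with 95% counting intervals. Short genes such as Cdc20 (-0.57) and Ube2c (-0.38) lie below 0 and long ones such as Kif11 (0.26) and Kif4 (0.30) above; a few genes near 0 change sign when hemoglobin is left out of the scaling.

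The relation with gene span recurred among the members in most other classes. Over the members it was 0.86 in granulocyte-monocyte progenitor-like cells (n = 38), where it was 0.62 over all genes. It was 0.74 in monocyte-like cells (n = 39) and 0.71 in early neutrophil-like cells (n = 38), where all genes had 0.58 and 0.59. In pro-B or pre-B-like cells it was 0.64 (n = 39), where all genes had 0.54. In megakaryocyte-like cells the members had 0.40 (n = 34), where all genes had 0.02. It was 0.72 in T or NK-like (n = 18), 0.57 in basophil or mast-like (n = 39), 0.57 in dendritic-like (n = 35) and 0.31 in macrophage-like cells (n = 13). All genes had 0.55, 0.45, 0.50 and 0.40 in these classes. Below 0 were mature B-like cells, at -0.07 (n = 11), and stromal-like cells, at -0.34 (n = 18), where all genes had 0.57 and 0.21. The division of the members by role described above and this relation with length cannot be told apart. Cdc20, Ube2c and Birc5 are short genes, and Kif11, Kif4 and Mki67 are longer ones. Mki67 is long by its exons (10061 bases) more than by its span (26578 bases). Plk1 (span 10435 bases, exons 2199) is short as well but was higher in early erythroid-like cells.

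The promoters of the members share sequence elements known from genes of G2 and M. RefSeq promoters (GRCm38.p6, 250 bases before to 50 after each start) were matched for 35 members with 38 promoters, while Ccna2, Aurkb, Cdc25c, Tpx2 and Smc4 had no entry. The letters TTTGAA, with the variant form TTCGAA, are the core of the cell cycle homology region that the MuvB complex reads. These cores and CCAAT, the box bound by NF-Y, were searched on both strands, with overlapping matches allowed. TTTGAA was present in 29 of 38 member promoters (76.3%), against 17.9% of all 32851 promoters. TTCGAA was present in 4 (10.5%), against 1.56%. CCAAT was present in 30 (78.9%), against 37.4%. Either core together with CCAAT was found in 28 (73.7%), against 7.52%. Bub3, Ect2 and Prc1 entered more than once, with overlapping windows. Counted by gene, 26 of 35 members held TTTGAA, 27 held CCAAT and 25 held either core with CCAAT. Median GC content was 59.8% in the member promoters and 52.7% in all. Nuf2, Nusap1, Tacc3, Mad2l1 and Birc5 held none of the 3 motifs in this window. A match describes letters only.

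The promoters of the 3 members with the highest and the 3 with the lowest ratio in early erythroid-like cells are shown to compare the elements at both ends of the range. Each is 230 bases of RefSeq sequence on GRCm38.p6, 200 before to 30 after the start, written 5' to 3' in the direction of the gene, with both cores and the CCAAT box in capitals in either orientation (TTCAAA is the reverse complement of the first core, and ATTGG that of the box). The higher genes are Mki67 (chr7:135716350-135716579 on the minus strand), Kif4 (chrX:100625865-100626094 on the plus strand) and Kif11 (chr19:37376182-37376411 on the plus strand). The lower genes are Cdc20 (chr4:118437314-118437543 on the minus strand), Cdk1 (chr10:69352883-69353112 on the minus strand) and Ube2c (chr2:164769729-164769958 on the plus strand). All 6 hold a core and at least 1 CCAAT, so these letters do not separate the 2 ends. In Ube2c a box on the plus strand overlaps a box on the minus strand.
Mki67: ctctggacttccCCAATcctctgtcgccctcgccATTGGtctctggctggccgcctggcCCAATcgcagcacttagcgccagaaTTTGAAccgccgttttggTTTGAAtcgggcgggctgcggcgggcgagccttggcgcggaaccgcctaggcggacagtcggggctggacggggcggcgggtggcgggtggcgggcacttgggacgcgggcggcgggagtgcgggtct
Kif4: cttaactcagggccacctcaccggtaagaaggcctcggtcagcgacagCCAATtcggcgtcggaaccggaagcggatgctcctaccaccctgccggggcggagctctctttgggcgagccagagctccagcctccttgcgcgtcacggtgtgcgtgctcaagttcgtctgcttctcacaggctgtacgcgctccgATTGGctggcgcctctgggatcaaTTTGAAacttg
Kif11: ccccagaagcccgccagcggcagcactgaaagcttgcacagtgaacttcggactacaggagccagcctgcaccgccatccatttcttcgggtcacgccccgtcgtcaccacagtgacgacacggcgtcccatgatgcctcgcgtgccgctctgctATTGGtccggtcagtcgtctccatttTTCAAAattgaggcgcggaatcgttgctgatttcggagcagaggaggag
Cdc20: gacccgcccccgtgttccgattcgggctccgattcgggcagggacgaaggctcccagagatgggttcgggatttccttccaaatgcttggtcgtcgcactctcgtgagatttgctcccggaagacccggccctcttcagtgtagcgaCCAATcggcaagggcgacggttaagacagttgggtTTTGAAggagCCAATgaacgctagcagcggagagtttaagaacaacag
Cdk1: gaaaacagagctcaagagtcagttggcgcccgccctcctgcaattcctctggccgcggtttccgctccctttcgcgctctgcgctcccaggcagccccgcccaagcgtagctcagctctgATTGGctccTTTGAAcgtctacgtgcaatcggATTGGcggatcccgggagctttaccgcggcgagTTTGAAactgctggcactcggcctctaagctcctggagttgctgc
Ube2c: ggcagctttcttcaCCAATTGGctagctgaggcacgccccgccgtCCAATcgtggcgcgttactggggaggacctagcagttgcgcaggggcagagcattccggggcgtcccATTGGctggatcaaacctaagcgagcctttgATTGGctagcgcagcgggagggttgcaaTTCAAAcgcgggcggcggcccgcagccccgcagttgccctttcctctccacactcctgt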

How the data were processed

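Values were raw UMI counts per gene and barcode, deposited by the authors and made with Cell Ranger 7.1.0 (per the file headers) on genome build mm10 (per the labels), with no normalization. Whether intronic reads were counted, and how the DKO cells were called, is not stated. The members and the gene lists were chosen with earlier results of these data known. Control cells were the 9663 barcodes above 4869 UMIs (percentile 99 among the 3000 deepest barcodes, divided by 10), plus 9542 of 10284 barcodes of at least 500 UMIs whose profile differed from that of droplets of at most 100 UMIs (10000 simulations, false discovery rate 0.01). This likelihood test can miss hemoglobin-rich barcodes of low depth. The 19205 control cells held 90.7% of the library's UMIs. Removed were 172 control and 215 DKO cells with over 20% mitochondrial UMIs, then 651 control (3.42%) and 411 DKO cells (2.95%) scored as doublets against simulated pairs, at the threshold of the control (0.218) in both. The DKO's own threshold (0.280) would mark 292. Clusters (2000 variable genes, 30 principal components, 15 neighbors, Leiden resolution 1) were named by markers. Clustering left out Ddx41, Cgas and the cycle genes.

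Counts were summed per class and library. Ratios carry exact conditional binomial 95% intervals, levels exact Poisson intervals and shares Clopper-Pearson intervals. A gene passed the filter at a mean of 20 CPM over both libraries. Classes with fewer than 50 cells or 100 member UMIs in a library were not compared. Named with values were, in all cells and in 8 classes, the 5 members with the most UMIs and the 3 highest and 3 lowest ratios among members with at least 100 UMIs over both libraries, across classes the members with the widest and narrowest range, and 6 regulators. In early erythroid-like cells all 40 were named by role. Gene lengths came from GENCODE M21 (GRCm38), which held 32158 of the genes, and promoters from RefSeq (GRCm38.p6). In total 28 alternatives were listed, many of them for several classes at once, and keeping all control barcodes of at least 500 UMIs was added for 4 summed levels after seeing the data. The calling, thinning, interval and motif steps were tested on simulated data, and the doublet step was not. Analysis ran in Python 3.11.15 with scanpy 1.11.5, igraph 0.11.9, scipy 1.17.1, numba 0.67.0, numpy 2.4.6, scikit-image 0.26.0, pandas 2.3.3, matplotlib 3.10.9, scikit-learn 1.9.0 and anndata 0.12.19.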

Additional observations from a re-analysis of the deposited data

How the results depend on the processing

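The summed log2 ratio of the 40 genes kept its direction in most classes. At most 10% mitochondrial UMIs left all 20 ratios within their intervals. With hemoglobin UMIs left out of the scaling, early erythroid-like cells turned to 0.057, and the ratio became 0.23 in all cells, -0.22 in late erythroid-like, -1.01 in megakaryocyte-like, -0.26 in monocyte-like, 0.038 in pro-B or pre-B-like and -0.48 in stromal-like cells, and 0.10, -0.29 and -0.11 in the ranges of 40 to 75%, 75 to 90% and 90% or more hemoglobin; this scaling moves the median of all genes by -0.10 in the range of 75 to 90% and by 0.18 at 90% or more. Without the most abundant member, 3 ratios turned: early erythroid-like to 0.022, stromal-like to 0.025 and 75 to 90% to 0.15. It became 0.10 in all cells, 0.085 in early neutrophil-like, 0.061 in granulocyte-monocyte progenitor-like, -0.36 in late erythroid-like, -0.62 in mature B-like, -0.63 in mature neutrophil-like and 0.040 in pro-B or pre-B-like cells, and -0.079, -0.12, 0.24 and -0.19 in the other 4 ranges. With doublets kept, granulocyte-monocyte progenitor-like cells turned to -0.013, and the ratio became 0.053 in all cells, -0.0099 in early erythroid-like, 0.22 in early neutrophil-like, -0.21 in basophil or mast-like, 0.58 in dendritic-like, -0.75 in macrophage-like, -0.16 in mature B-like, -0.49 in mature neutrophil-like, -2.33 in megakaryocyte-like, -0.091 in monocyte-like and -0.42 in stromal-like cells. With control and DKO barcodes above the UMI threshold alone, it became 0.042 in all cells, -0.022 in T or NK-like, 0.28 in dendritic-like, 0.16 in early neutrophil-like, -0.94 in macrophage-like, -0.56 in mature B-like and -0.67 in mature neutrophil-like cells, and -0.075, 0.059, -0.23 and -0.37 in the ranges under 15%, 40 to 75%, 75 to 90% and 90% or more. Megakaryocyte-like (105 and 26 cells) and stromal-like cells (72 and 20) were too few for this alternative, which was not run for them. Clustering at a Leiden resolution of 2 gave -0.042 in early erythroid-like, -0.58 in late erythroid-like, -0.44 in basophil or mast-like, 0.52 in dendritic-like, -0.74 in macrophage-like, -0.37 in mature B-like and -2.50 in megakaryocyte-like cells. Clustering with the cell cycle genes gave -0.013 in early erythroid-like, -0.18 in late erythroid-like, -0.11 in basophil or mast-like, 0.49 in dendritic-like and 0.17 in early neutrophil-like cells. Keeping all control barcodes of at least 500 UMIs, an alternative chosen after seeing the data, gave 0.15 at 40 to 75% and left the other 3 results within their intervals. The cause was not tested for any of these.

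The share of cells with a mitotic signature, control and then DKO, was 34.00% and 27.6% in all cells and 92.5% and 94.03% in early erythroid-like cells at a limit of 3 member UMIs, and 17.1% and 16.6% in all cells and 78.00% and 81.8% in early erythroid-like cells at a limit of 10. Without thinning it was 37.2% and 38.7% in all cells and 89.1% and 93.2% in early erythroid-like cells, which turns the order in all cells. With doublets kept it was 92.8% and 96.7% in early erythroid-like cells. In a window of 50 bases on each side of the start, CCAAT was in 52.6% of member promoters and either core with CCAAT in 47.4%, against 13.6% and 0.886% of all promoters. The number of members past the fold in early erythroid-like cells stayed at 0 without hemoglobin in the scaling. A 2-fold limit and no level filter could not change it, since no member passed 1.5-fold and all 40 passed the filter.

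No paired analysis was possible because each genotype was 1 library from 1 mouse. Genotype therefore cannot be told apart from mouse, library, preparation or cell calling, which was done in different ways for the 2 libraries. Intervals cover counting error only. In small classes, such as dendritic-like and megakaryocyte-like cells, the values move with the clustering. The 3' tags do not show splice forms, protein or phosphorylation, by which much of mitosis is controlled, and the share of cells in a given phase was not measured.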
